A study of Mus musculus with 106 samples.

Results

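Immediate early genes are switched on within minutes when a neuron is strongly activated, from transcription factors that are already present in the cell. Of 55401 mouse genes listed in the count table, 10 were taken by name through their Ensembl identifiers: *Fos*, *Fosb*, *Junb*, *Egr1*, *Egr2*, *Egr3*, *Egr4*, *Arc*, *Nr4a1* and *Npas4*. Their levels were followed in neuronal RiboTag IPs and in total RNA of a Huntington's disease (HD) mouse, to ask how high each gene stood in each cell type and whether HD and control mice differed.

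In the RiboTag method a ribosomal protein, Rpl22, carries an HA tag in cells that express Cre, and ribosome-bound mRNA of those cells is pulled down with an HA antibody. HD mice were heterozygous Hdh Q7/Q200 knock-ins and control mice were Hdh Q7/Q7. The breeding is described for the Gad2, PV and vGluT2 lines. There both genotypes had a 129S4 background, 1 copy of the RiboTag allele and 1 copy of a Cre driver. These mice were about 9 months old and were killed by carbon dioxide asphyxiation. The paper on these data does not describe the SST line. The Gad2+ and vGluT2+ lines used IRES-Cre knock-ins at *Gad2* and *Slc17a6* and gave cerebrum and cerebellum, the PV+ line used *Pvalb*-IRES-Cre and gave cerebrum, and an SST line, whose driver is not given in the sources used here, gave cerebrum. The cerebrum was taken without the olfactory bulb, so each cerebral IP mixes neurons of cortex, striatum, thalamus and other regions. A Cre line also tags every cell in which its driver was active earlier in life. Each PV+ IP pooled duplicate pull-downs, and 3 libraries, all from HD IPs (cerebellar Gad2+, PV+ and cerebral vGluT2+), were sequenced again.

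The 106 libraries came from 45 mice, 12 of the Gad2 line, 11 of the PV line, 10 of the SST line and 12 of the vGluT2 line. There were 67 IP libraries: 6 control and 6 HD of cerebral Gad2+, cerebral vGluT2+ and cerebellar Gad2+ neurons, 6 and 5 of PV+, 5 and 4 of SST, and 5 and 6 of cerebellar vGluT2+ neurons. The 39 total RNA libraries comprised 25 of cerebrum and 14 of cerebellum. Summed counts per library ran from 23256772 to 107753586 in IPs and from 21905221 to 62160033 in total RNA, with a median of 35866725 over all libraries. At this depth the rarest member, *Egr2*, had a mean of 52 counts per library and the most abundant, *Egr1*, a mean of 4129. Levels are given as CPM, counts scaled to a common library size, on 1 scale over all libraries, and a gene was called where edgeR's Benjamini-Hochberg adjusted p over all protein-coding genes tested was 0.05 or less.

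When synaptic activity raises calcium in a neuron, kinases phosphorylate CREB, serum response factor and its partners at the promoters of these genes, and their mRNAs appear and decay quickly. Most of the proteins are transcription factors that go on to switch on later genes, while Arc acts at synapses. Their mRNA is widely used as a trace of recent neuronal activity, and the level in a brain depends on what the animal experienced shortly before death.

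The members lie on 9 chromosomes (GRCm38, GENCODE M21). The AP-1 subunits, which bind DNA as Fos-Jun pairs, are *Fos* (ENSMUSG00000021250, chr12:85473890-85477273, plus strand), *Fosb* (ENSMUSG00000003545, chr7:19302696-19310051, minus strand) and *Junb* (ENSMUSG00000052837, chr8:84974484-84978718, minus strand). The zinc finger factors of the EGR family are *Egr1* (ENSMUSG00000038418, chr18:34859823-34864984, plus strand), *Egr2* (ENSMUSG00000037868, chr10:67535475-67542188, plus strand), *Egr3* (ENSMUSG00000033730, chr14:70077203-70082614, plus strand) and *Egr4* (ENSMUSG00000071341, chr6:85511121-85513589, minus strand). *Arc* (ENSMUSG00000022602, chr15:74669083-74672570, minus strand), a regulator of AMPA receptor endocytosis, and *Nr4a1* (ENSMUSG00000023034, chr15:101254269-101274795, plus strand), an orphan nuclear receptor, share a chromosome. *Npas4* (ENSMUSG00000045903, chr19:4984355-4990316, minus strand) encodes a bHLH-PAS factor of neurons that responds to calcium influx.

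The tagged cells were first compared with their own markers. The summed CPM of the GABAergic markers *Gad1*, *Gad2* and *Slc32a1* was 2254 to 3022 in control cerebral Gad2+ IPs and 50.7 to 120 in control cerebral vGluT2+ IPs, with *Gad1* the most abundant. The glutamatergic pair *Slc17a6* and *Slc17a7* summed to 129 to 423 in the former and 1901 to 2509 in the latter, mostly *Slc17a7*. Control PV+ and SST IPs carried both sets, with GABAergic sums of 2215 to 2843 and 1057 to 1677 and glutamatergic sums of 843 to 1045 and 699 to 996. The SST set (*Sst*, *Chodl*, *Elfn1*) summed to 915 to 1647 in control SST IPs against 94 to 174 in PV+ IPs. In the cerebellum the granule cell set (*Gabra6*, *Neurod1*, *Cbln3*) led in vGluT2+ IPs, 5358 to 7729 in controls, and the Purkinje set (*Pcp2*, *Calb1*, *Car8*) in Gad2+ IPs, 6750 to 11537. Against cerebral total RNA 3 of 3 PV markers were higher in PV+ IPs (median log2 fold change 2.25, with 76.2% of all genes called), and 3 of 3 SST markers were higher in SST IPs (median 2.09, with 69.7% called). The Purkinje markers were also 3 of 3 higher in PV+ IPs than in total RNA, with a median of 2.44. They summed to 80.5 to 595 CPM with a median of 153 in control and to 60 to 1436 with a median of 87.4 in HD PV+ IPs, led by *Calb1*, and the granule cell markers, led by *Cbln3*, to 5.52 to 133 with a median of 15.3 and to 2.38 to 333 with a median of 5.6. Single PV+ libraries thus stood apart in markers of cerebellar neurons, and their part in the levels was not tested. The PV+ and SST libraries are therefore read here as mixtures.

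**Figure D1:**
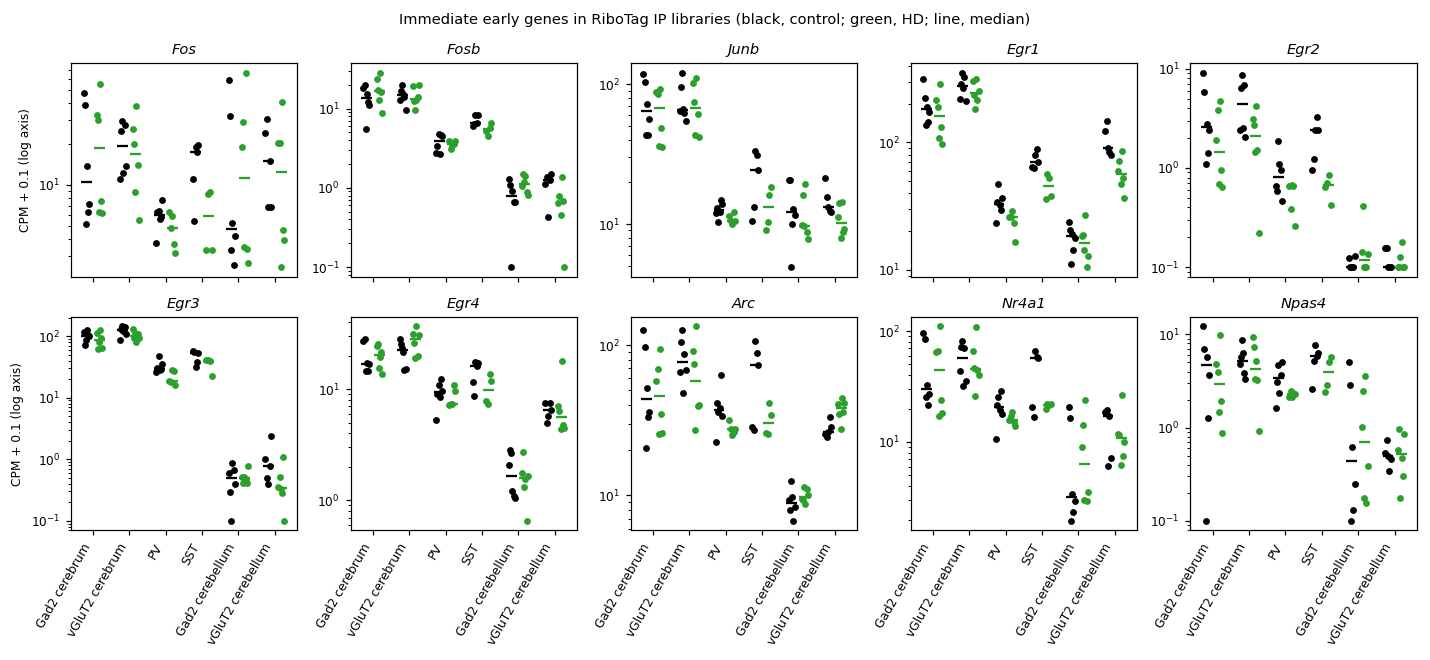
Level of each of the 10 immediate early genes in the 6 kinds of RiboTag IP, in CPM + 0.1 on a log axis. Each point is 1 library (black for control, green for HD) and each line the median of its group. The medians of *Egr3*, *Fosb* and *Egr2* lie far lower in cerebellar than in cerebral IPs. The ranges of *Egr3* and *Fosb* do not overlap between cerebrum and cerebellum, while those of *Egr2* and *Fos* do.

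Among the AP-1 genes, *Fos*, the classic early gene, spread widely within cell types and overlapped between all of them. Its median was 16.9 CPM in cerebral vGluT2+ IPs, 14.9 in cerebellar vGluT2+, 10.6 in cerebral Gad2+, 8.78 in SST, 5.67 in PV+ and 4.62 in cerebellar Gad2+ IPs. Each neighbour in this order overlapped the next, and single libraries of cerebellar Gad2+ neurons ran from 2.48 to 66.4 CPM. *Fosb*, whose splice form ΔFosB is stable and accumulates with repeated stimulation, was ordered instead. Cerebral Gad2+ (median 15.5 CPM) and vGluT2+ IPs (13.9) overlapped. SST IPs (6.36) lay below all cerebral vGluT2+ libraries but overlapped Gad2+ IPs, PV+ IPs (3.52) lay below all Gad2+ and vGluT2+ libraries of the cerebrum and overlapped SST IPs, and both cerebellar IPs were lower again, at 0.886 and 0.685 CPM with 1 library at 0 counts in each. *Junb*, a Jun partner of the Fos proteins, had medians of 65.7 CPM in cerebral vGluT2+ and 64.4 in Gad2+ IPs. All other types were below every library of these, with medians of 16 in SST, 12.4 in cerebellar vGluT2+, 11.9 in PV+ and 10.7 in cerebellar Gad2+ IPs, and these overlapped each other.

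Within the EGR family, *Egr2* and *Egr3* had far lower medians in cerebellar than in cerebral IPs. *Egr1*, a factor tied to synaptic plasticity, had medians of 260 CPM in cerebral vGluT2+ IPs, 181 in cerebral Gad2+, 80 in cerebellar vGluT2+, 63.4 in SST, 29.1 in PV+ and 18 in cerebellar Gad2+ IPs, with overlap between all neighbours. *Egr3* had medians of 111 CPM in cerebral vGluT2+, 96.9 in cerebral Gad2+, 40.3 in SST and 27.8 in PV+ IPs. In cerebellar vGluT2+ and Gad2+ IPs it was at 0.4 and 0.393 CPM, far below the lowest cerebral library at 16.1. *Egr4*, the least studied of the family, ran from 24.3 CPM in cerebral vGluT2+ through 18.1 in cerebral Gad2+, 11.8 in SST, 8.99 in PV+ and 6.3 in cerebellar vGluT2+ to 1.49 in cerebellar Gad2+ IPs, and only the last was apart from its neighbour. *Egr2*, known for its role in myelinating Schwann cells and hindbrain patterning, was rare, with medians of 2.5 CPM in cerebral vGluT2+, 2.06 in cerebral Gad2+, 0.843 in SST and 0.558 in PV+ IPs. It was at 0 counts in 7 cerebellar IP libraries of each type, with 17 counts over all 12 Gad2+ and 8 over all 11 vGluT2+ libraries.

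*Arc* varied little among cerebellar IPs, where the highest library was 1.86 times the lowest in Gad2+ and 1.81 times in vGluT2+ IPs. Its medians were 71.3 CPM in cerebral vGluT2+, 43.9 in cerebral Gad2+, 34.2 in SST, 33.3 in cerebellar vGluT2+ and 31.4 in PV+ IPs, all overlapping, and 9.28 in cerebellar Gad2+ IPs, which lay below all others. *Nr4a1* had medians of 45.4 CPM in cerebral vGluT2+, 29.9 in cerebral Gad2+, 21.7 in SST, 17.8 in PV+, 11.4 in cerebellar vGluT2+ and 3.4 in cerebellar Gad2+ IPs, with overlap between all neighbours. *Npas4* had its highest median in SST IPs at 5.09 CPM, next to cerebral vGluT2+ at 4.9, cerebral Gad2+ at 3.67 and PV+ IPs at 2.28. Its medians in cerebellar Gad2+ and vGluT2+ IPs were 0.406 and 0.397. The SST median includes 3 controls whose labels carry identifiers of another series, at 5.77 to 7.59 CPM. The other SST controls ran from 2.47 to 5.09 and HD from 2.29 to 5.62, so this rank depends on those 3. Per kilobase of exon the order of genes in cerebral vGluT2+ IPs was *Egr1* (57.9 CPM per kb), *Junb* (28.5), *Egr3* (25.3), *Arc* (23.3), *Nr4a1* (12.9), *Egr4* (11.3), *Fos* (7.18), *Fosb* (2.22), *Npas4* (1.19) and *Egr2* (0.737). In cerebellar Gad2+ IPs *Junb* led with 4.67 CPM per kb, before *Egr1* at 4.02 and *Arc* at 3.04, and *Egr3* was at 0.0891.

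Members were mostly lower in cerebellum, and *Fos* differed by the fit used. In Gad2+ IPs, 9 of 10 members were lower in cerebellum than in cerebrum and 0 higher, where 65.6% of all genes were called in either direction, and the members' median log2 fold change was −2.96 against 0.05 over all genes. *Egr3* differed by −7.85 (SE 0.243), *Fosb* by −4.15 (SE 0.287), *Egr4* by −3.61 (SE 0.23) and *Egr1* by −3.39 (SE 0.199) on the log2 scale. In each of these genes every cerebellar library was below every cerebral one, which was not counted over all genes. *Fos* was the member not called, at −0.12 (SE 0.596), and with the mouse as a block it was called too, at −0.63 (SE 0.165). *Npas4* (−1.68, SE 0.719) was not called in control mice alone. In vGluT2+ IPs, 9 of 10 members were again lower in cerebellum and 0 higher, against 72.6% of genes called in either direction, with a median of −2.37 against 0.02. There *Egr3* differed by −7.62 (SE 0.351), *Fosb* by −4.26 (SE 0.332), *Npas4* by −3.54 (SE 0.374), *Egr1* by −1.79 (SE 0.155) and *Arc* by −1.23 (SE 0.222), and *Fos* by −0.3 (SE 0.402). No fold is given for *Egr2*, whose cerebellar counts were too few to set one.

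Between the cell types of one region the members split. Against cerebral Gad2+ IPs, 9 of 10 members were lower in PV+ IPs and 0 higher, where 67.8% of genes were called, with a median log2 fold change of −1.89 against 0.01 for all genes. *Egr1* was lower by −2.65 (SE 0.186), *Junb* by −2.52 (SE 0.191) and *Fosb* by −2.08 (SE 0.203), and *Npas4* was not called at −0.63 (SE 0.449). *Arc* (−0.73, SE 0.259) was not called in control mice alone. In *Fosb*, *Junb*, *Egr1*, *Egr3* and *Egr4* every PV+ library was below every cerebral Gad2+ library. The share of all genes separated in this way was not counted. In *Fos* and *Nr4a1*, 5 of the 12 Gad2 mice stood apart from the others, by the largest gap in *Fos*. The other 7 Gad2 libraries ran from 5.09 to 13.7 CPM in *Fos*, 20.7 to 51.7 in *Arc* and 16.9 to 32.7 in *Nr4a1*, against 3.04 to 7.63, 22.6 to 62.7 and 10.5 to 29 in PV+ IPs, so these ranges overlapped without the 5. No test was run without them, since *Fos*, a member, set them apart. In SST IPs 6 members were lower (*Fosb*, *Junb* and the EGR genes) and 0 higher, where 62.8% of genes were called, with a median of −1.08 against 0.02; *Egr2* and *Egr4* lost the call in control mice alone. Beside this, astrocyte markers summed to 1058 to 1523 CPM in control PV+ and 1278 to 2441 in control SST IPs against 178 to 683 in control cerebral Gad2+ IPs, with *Slc1a2* the most abundant. Oligodendrocyte markers summed to 1436 to 2305, 2492 to 4359 and 371 to 1434 CPM in the same order. Striatal projection markers were 5 of 5 lower in PV+ and 5 of 5 lower in SST than in cerebral Gad2+ IPs, with medians of −4.15 and −3.18. They summed to 146 to 253 and 277 to 459 CPM in control PV+ and SST IPs against 4025 to 5509 in control cerebral Gad2+ IPs, led by *Ppp1r1b*, or by *Penk* in SST IPs. The part of these cells in the lower levels was not tested.

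Cerebral vGluT2+ and Gad2+ IPs were close. 1 of 10 members, *Egr1*, was called, higher in vGluT2+ by 0.52 (SE 0.155), where 41.5% of genes were called; its ranges overlapped and the call was lost in control mice alone, at 0.48. In the cerebellum 3 of 9 members tested were higher in vGluT2+ than in Gad2+ IPs and 0 lower, against 69.3% of genes called. These were *Egr1* at 2.15 (SE 0.184), *Egr4* at 2.08 (SE 0.278) and *Arc* at 1.75 (SE 0.106). In each the lowest vGluT2+ library was above the highest Gad2+ library, which was not counted over all genes. *Junb*, by contrast, was at −0.02 (SE 0.202) between these IPs and *Fos* at −0.29 (SE 0.604).

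Against total RNA of the same tissue, PV+ IPs were low in all members. All 10 were lower in the IP, where 76.2% of genes were called in either direction, from *Egr1* at −2.23 (SE 0.14) to *Arc* at −0.79 (SE 0.238), with a median of −1.23 against −0.01. With the mouse as a block, over mice with both libraries, 9 of these were called and *Npas4* was at −0.18 (SE 0.247); it was not called with total RNA of the PV line only either, at −0.3 (SE 0.244), nor in control mice alone. In SST IPs 5 members were lower and 0 higher, against 69.7% of genes called: *Fosb* by −0.76 (SE 0.14), *Junb* by −1.26 (SE 0.221), *Egr1* by −1.18 (SE 0.143), *Egr3* by −0.98 (SE 0.138) and *Egr4* by −0.61 (SE 0.19). The same 5 were called with the mouse as a block, and *Egr4* was not called in control mice alone.

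In the other IPs the members called differed with the total RNA libraries used and with the mouse as a block. In cerebral vGluT2+ IPs 6 members were higher than in total RNA and 0 lower, against 68.5% of genes called, led by *Egr2* at 0.89 (SE 0.334), *Egr1* at 0.82 (SE 0.111), *Junb* at 0.67 (SE 0.173) and *Fos* at 0.65 (SE 0.262), with *Egr3* at 0.32 and *Fosb* at 0.3. With the mouse as a block 2 were called, *Egr1* at 0.81 (SE 0.0881) and *Junb* at 0.45 (SE 0.113). *Egr2* was not called with total RNA of the vGluT2 line only, and *Fos* and *Fosb* were not in control mice alone. In cerebral Gad2+ IPs 4 members were higher and 0 lower, against 68% of genes called: *Fos* at 0.83 (SE 0.329), *Junb* at 0.57 (SE 0.183), *Fosb* at 0.42 (SE 0.157) and *Egr1* at 0.33 (SE 0.139). With the mouse as a block none of these 4 was called, *Fos* was at −0.02, and 3 other members were called as lower in the IP, *Npas4* at −1.3 (SE 0.178), *Arc* at −0.56 (SE 0.181) and *Nr4a1* at −0.43 (SE 0.0985). In the 6 Gad2 mice with both cerebral libraries, therefore, no member was higher in the IP by this test. None of the 4 was called in control mice alone or with total RNA of the Gad2 line only, where *Fos* was at 0.29 (SE 0.602). In cerebellar Gad2+ IPs 3 of 9 members tested were lower than in total RNA and 0 higher, against 67.4% of genes called: *Egr4* at −1.5 (SE 0.314), *Egr1* at −1.37 (SE 0.164) and *Arc* at −1.27 (SE 0.125). With the mouse as a block *Nr4a1* at −1.4 (SE 0.129) and *Fos* at −0.49 (SE 0.156) were called as well, and *Nr4a1* also with total RNA of the Gad2 line only (−1.53, SE 0.584). In cerebellar vGluT2+ IPs *Egr1* at 0.72 (SE 0.172) and *Arc* at 0.4 (SE 0.104) were higher and *Npas4* lower at −1.57 (SE 0.61), 3 of 9 members tested against 68.3% of genes called; *Arc* was not called in control mice alone, at 0.35 (SE 0.161). With the mouse as a block *Npas4* was at −0.21 and no longer called, and *Egr4* was called at 0.64 (SE 0.226). With total RNA of the vGluT2 line only, 5 of 9 members were called, all higher in the IP: *Fos* at 1.73 (SE 0.472), *Egr4* at 1.09 (SE 0.259), *Egr1* at 1.01 (SE 0.174), *Arc* at 0.46 (SE 0.115) and *Junb* at 0.45 (SE 0.159). *Npas4* was then at 0.02 (SE 0.457), and *Fos* had been at −0.14 (SE 0.6) with total RNA of both lines.

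**Figure D2:**
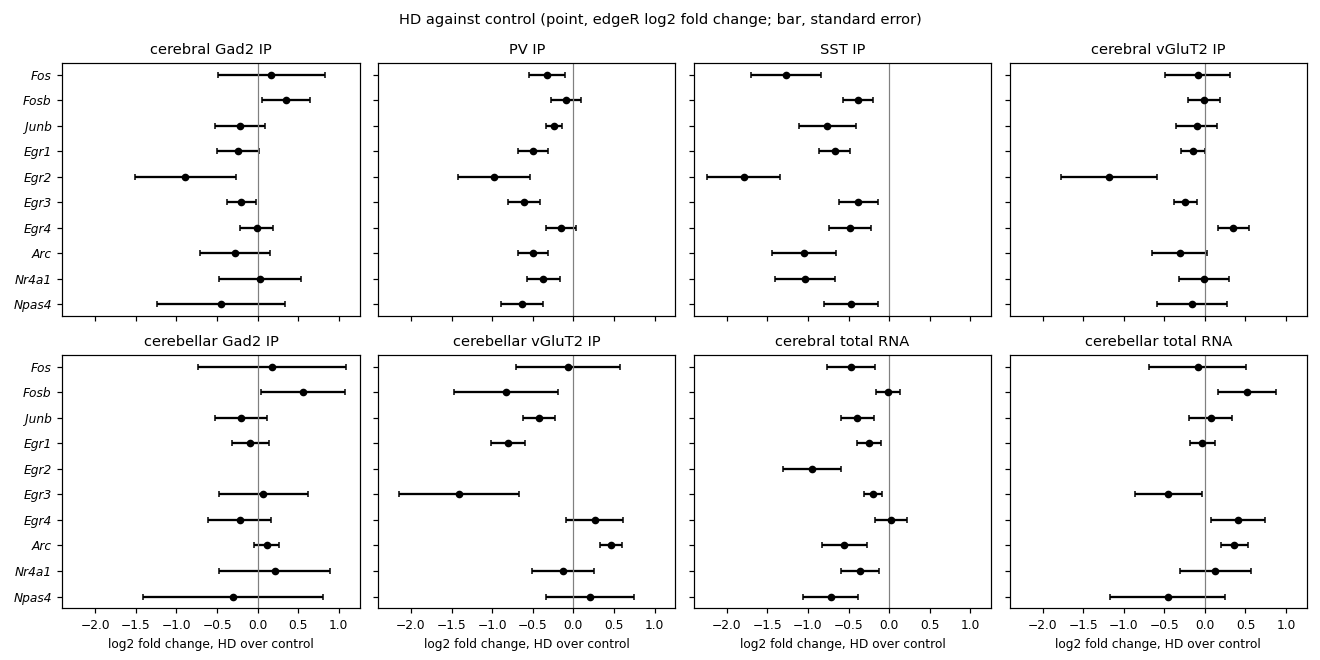
HD effect (log2 fold change, HD against control, with its standard error) for each member in the 6 kinds of IP and in total RNA of both regions. No member passed the test by edgeR in any panel; all 10 points lie below 0 in PV+ and SST IPs, and *Egr2* was not tested in the cerebellar panels.

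The HD effect was tested in each IP and in total RNA of each region, and no member was called by edgeR in any of them. In bulk libraries fewer cells of a type and less RNA per cell cannot be told apart. In cerebral Gad2+ IPs 0 of 10 members were called, as were 0.0279% of 14342 genes, with 0 members and 9.15% of genes at an unadjusted p under 0.05 and 0 members called by DESeq2. *Fos* was 5.09 CPM at its lowest, 10.4 at the median and 47 at its highest in controls and 6.07, 18.7 and 55.3 in HD; *Arc* was 20.7, 43.9 and 125 in controls and 25.5, 46 and 94.2 in HD. The groups overlapped for every member, and the log2 fold changes had standard errors up to 0.784. Striatal projection markers, led by *Ppp1r1b*, summed to 4025 to 5509 CPM in these controls and 2170 to 4038 in HD. In cerebral vGluT2+ IPs 0 of 10 members were called, against 0.00697% of genes, with 0 members and 7.28% of genes at an unadjusted p under 0.05 by edgeR, and by DESeq2 0 called and 1 unadjusted. *Egr1* was 212, 277 and 352 CPM at the lowest, median and highest control and 183, 242 and 313 in HD, a log2 fold change of −0.15 (SE 0.147) within the spread of the mice.

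In PV+ IPs all 10 members were lower in HD, none past the test. 0 of 10 were called by edgeR, against 0.034% of genes, 6 members and 4.28% of genes had an unadjusted p under 0.05, and DESeq2 called 0 with 6 unadjusted. In other edgeR fits 0 were called too, with 3 unadjusted and 8 of 10 lower where the replicate number was a block, 2 unadjusted in a fit of all IPs and 4 without the library sequenced again. The members' median log2 fold change was −0.43 against 0 for all genes. *Egr3* was 25.9, 29.5 and 46.8 CPM at the lowest, median and highest control and 16.1, 17.9, 18.6, 26.6 and 27.8 in the HD libraries. In 3 HD libraries it was thus below all controls, and the other 2 overlapped them; the log2 fold change was −0.61 (SE 0.193). *Npas4* was 1.52, 3.28 and 4.99 CPM in controls and 2.02 to 2.36 in HD, inside the control range at a log2 fold change of −0.63 (SE 0.259). *Egr1* (−0.5, SE 0.187), *Arc* (−0.5, SE 0.184), *Egr2* (−0.98, SE 0.442) and *Junb* (−0.24, SE 0.103) overlapped between the groups too. Glial marker sums were also lower in HD. Astrocyte markers summed to 1058 to 1523 CPM in controls and 646 to 1097 in HD, and oligodendrocyte markers to 1436 to 2305 and 1017 to 1483, led by *Slc1a2* and *Mbp*, and 3 of 5 astrocyte and 3 of 5 oligodendrocyte markers had an unadjusted p under 0.05. Striatal projection markers summed to 146 to 253 CPM in controls and 102 to 200 in HD, led by *Ppp1r1b*, with 4 of 5 at an unadjusted p under 0.05 and a median log2 fold change of −0.57. None of these markers was called by edgeR, DESeq2 was not counted for them, and their part was not tested.

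In SST IPs the control mice differed among themselves. 0 of 10 members were called by edgeR, against 0% of 14689 genes, with 6 members and 1.41% of genes at an unadjusted p under 0.05, and DESeq2 called 0 with 7 unadjusted; all 10 were lower in HD, with a median of −0.71 against 0.01. *Nr4a1* was 16.7 and 20.4 CPM in control replicates 1 and 2 and 56.7 to 65.8 in control replicates 3, 4 and 6, while the 4 HD libraries lay at 19.6 to 22. *Arc* was 26.9 and 28.4, then 73.9 to 107, and 25.3 to 40.8 in HD, in the same order, and *Fos* was 5.31 and 10.9, then 17.4 to 19.6, and 3.23 to 8.78. Control replicates 3, 4 and 6 were thus far above the other controls in these genes. Of the latter, both were within the HD range in *Arc*, while 1 was above all HD libraries in *Fos* and 1 below all in *Nr4a1*. Those 3 mice carry identifiers of another series in the labels than the remaining mice with SST IPs. With only the mice of the shared series, 2 controls and 4 HD, the members' median was −0.07, 5 of 10 were lower, 0 were called and 0 had an unadjusted p under 0.05. *Egr3* did not follow this pattern. It was 56 and 56.5 CPM in control replicates 1 and 2, 31 to 53.9 in the other controls and 22.1 to 40.9 in HD, at −0.62 (SE 0.283, unadjusted p 0.0535 by edgeR) with only the shared series and −0.38 (SE 0.24) with all controls. Control replicates 3, 4 and 6 share the genotype of control replicates 1 and 2 and differ from them in identifier series. From the HD mice they differ in both, so in that comparison series and genotype cannot be told apart.

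*Egr1* and *Egr2* in SST IPs were the only members in any IP type whose HD and control libraries did not overlap. The share of all genes without overlap was not counted, so this has no background to be read against. *Egr1* was 63.4, 64.1, 69.8, 79 and 88.3 CPM in controls and 35.6, 37.7, 52.9 and 56.5 in HD. *Egr2* was 0.843, 1.13, 2.32, 2.32 and 3.17 CPM in controls and 0.323, 0.547, 0.609 and 0.756 in HD. All 4 HD libraries were thus below all 5 controls, at log2 fold changes of −0.67 (SE 0.19) and −1.79 (SE 0.449), and neither passed edgeR's test over all genes. The controls nearest to HD were replicates 1 and 2, of the shared identifier series, at 63.4 and 64.1 CPM for *Egr1* and 1.13 and 0.843 for *Egr2*. With only the mice of that series the log2 fold changes were −0.46 (SE 0.252) and −0.78 (SE 0.463), with an unadjusted p by edgeR of 0.101 and 0.125. Astrocyte markers summed to 1278 to 2441 CPM in control and 947 to 1592 in HD SST IPs, with *Slc1a2* the most abundant. Over the 5 astrocyte markers the median log2 fold change was −0.07, and edgeR called 0 with 1 unadjusted. The part of these markers was not tested.

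In cerebellar Gad2+ IPs no member passed the test, and the standard errors reached 1.11. 0 of 9 members tested were called by edgeR, against 0.0142% of genes, with 0 members and 2.3% of genes at an unadjusted p under 0.05, and 0 members by DESeq2, also unadjusted; *Egr2* was too low to test. *Arc* was 6.67, 8.78 and 12.4 CPM at the lowest, median and highest control and 8.64, 9.6 and 11.3 in HD, a log2 fold change of 0.11 (SE 0.152). The estimates were far less exact for *Fos* (0.18, SE 0.909), *Nr4a1* (0.21, SE 0.687) and *Npas4* (−0.3, SE 1.11).

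In cerebellar vGluT2+ IPs *Egr1* was lower and *Arc* higher in most HD libraries, and neither passed edgeR's test in the fit of these IPs alone. 0 of 9 members tested were called by edgeR, against 2.11% of genes, 2 members and 15.5% of genes had an unadjusted p under 0.05, and DESeq2 called 2 with 3 unadjusted. *Egr1* was 80, 83.4, 90.5, 123 and 146 CPM in controls and 36.4, 56.3 and 85 at the lowest, median and highest HD library. In 5 of 6 HD libraries it was below all controls; edgeR gave −0.8 (SE 0.209, adjusted p 0.0699) and DESeq2 −0.81 (SE 0.211, adjusted p 0.00569), and over 19 settings the adjusted p ran from 0.00569 to 0.181. *Arc* was 24.5, 25.4, 26.4, 28.4 and 33.3 CPM in controls and 27.7, 38.1 and 44.3 in HD. It was above all controls in 5 of 6 HD libraries; edgeR gave 0.46 (SE 0.136, adjusted p 0.106) and DESeq2 0.45 (SE 0.144, adjusted p 0.0376), with adjusted p from 0.0376 to 0.616 over the settings. In edgeR fits without 1 library, *Egr1* was called without HD replicate 4 (−0.93, SE 0.196) and *Arc* without HD replicate 3 (0.54, SE 0.119). *Egr3*, near the limit of detection at 0.298 to 2.25 CPM in controls and 0 to 0.985 in HD, was at −1.41 (SE 0.734). In an edgeR fit of all IPs together *Egr1*, at −0.86 (SE 0.236), and *Egr3*, at −1.48 (SE 0.429), were called. The granule cell markers summed to 5358 to 7729 CPM in controls and 3503 to 4783 in HD, led by *Cbln3*, and *Cbln3* (−0.8, SE 0.0858) and *Neurod1* (−0.87, SE 0.156) fell in HD. Their part was not tested.

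In cerebral total RNA 0 of 10 members were called by edgeR, against 0.645% of genes, with 2 members and 7.03% of genes at an unadjusted p under 0.05, and DESeq2 called 0 with 3 unadjusted. Those 2 were *Egr2*, which ran from 0.357 to 7.34 CPM over all cerebral total RNA with a log2 fold change of −0.95 (SE 0.353), and *Npas4*, from 1.29 to 15.3 CPM with −0.72 (SE 0.337). 9 of 10 members were lower in HD, with a median of −0.38 against 0.02. In total RNA of the SST line, control replicates 3 and 4 carry the identifiers of the other series. *Npas4* was 8.64 and 10 CPM in them, against 1.71 and 4.17 in control replicates 1 and 2 and 2.51 to 3.25 in HD, and *Egr2* was 2.54 and 4.51, against 1.71 and 0.997 and 0.403 to 1.28. Control replicates 3 and 4 share the genotype of control replicates 1 and 2 and differ from them in identifier series. From the HD mice they differ in both, so here too series and genotype cannot be told apart in that comparison. Line by line edgeR called 0 of 10 members in each, with 0 unadjusted in the Gad2, 0 in the PV, 5 in the SST and 2 in the vGluT2 line, and DESeq2 was not run on single lines. The striatal projection markers *Penk* (−0.8, SE 0.148), *Adora2a* (−0.77, SE 0.147) and *Drd2* (−0.52, SE 0.111) fell in the same libraries, and their part was not tested. In cerebellum 0 of 9 members tested were called by edgeR although 24.5% of 14477 genes were, 1 member and 44.4% of genes had an unadjusted p under 0.05, and DESeq2 called 0 with 1 unadjusted. That gene was *Arc*. In the vGluT2 line it was 13.3, 16.1, 16.7 and 21.8 CPM in controls and 24, 29.6, 31.1 and 34 in HD, and in the Gad2 line 17.7, 22.5 and 29.4 in controls and 17.5, 22 and 26.9 in HD. The HD libraries were thus above all controls in the vGluT2 line. In the Gad2 line they overlapped the controls, with the lowest HD library just below all of them. Over both lines the log2 fold change was 0.36 (SE 0.167). The vGluT2 line alone gave 0.68 (SE 0.163) and a call, in a fit where 7565 of 14630 genes were called. In the Gad2 line alone edgeR called 0 of 9 members, also unadjusted, and 0 of 14226 genes, and with the replicate number as a block over both lines it called 0 members and 9 genes; DESeq2 was not run on these. In vGluT2-line total RNA the glutamatergic pair summed to 494 to 749 CPM in controls and 1240 to 1394 in HD, with *Slc17a7* the most abundant. Over both lines *Slc17a7* rose in HD by 0.57 (SE 0.175), while *Slc17a6* was at −1.32 (SE 0.598) and not called by edgeR. In the vGluT2 line the microglial markers, led by *Csf1r*, summed to 63.4 to 72.2 CPM in controls and 104 to 120 in HD, and the Purkinje markers, led by *Car8*, to 2133 to 2472 and 1283 to 1932. Granule cell markers, led by *Cbln3*, summed there to 2613 to 3705 in controls and 1846 to 2570 in HD. Oligodendrocyte markers, led by *Mbp*, summed to 4095 to 4824 and 2890 to 4061, and astrocyte markers, led by *Slc1a3*, to 2332 to 2947 and 1613 to 2361. Their part was not tested. *Arc* was also called over both lines on leaving out control replicate 3 (0.48, SE 0.148) or HD replicate 3 (0.45, SE 0.16) of the Gad2 line. Over all settings *Arc* ran from −0.07 to 0.68.

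Whether the HD effect differed between cell types or regions was tested directly. Between cerebral vGluT2+ and Gad2+ IPs edgeR called 0 of 10 members, against 0% of genes, with 0 unadjusted, and between cerebellar vGluT2+ and Gad2+ IPs 0 of 9, against 0.107%, with 1 unadjusted. Between regions it called 0 of 10 in Gad2+ IPs, against 0%, with 0 unadjusted, and 0 of 10 in vGluT2+ IPs, against 0.323%, with 1 unadjusted. Of all genes, 1.44%, 7.08%, 5.37% and 7.45% had an unadjusted p under 0.05 by edgeR in that order. DESeq2 called 0 members in each, with 0, 1, 1 and 1 unadjusted. In the 2 comparisons with 1 unadjusted gene by edgeR this was *Egr1*, whose HD effect in cerebellar vGluT2+ IPs was −0.73 (SE 0.333) below that in cerebellar Gad2+ and −0.63 (SE 0.276) below that in cerebral vGluT2+ IPs. Neither value passed the test. The unadjusted gene of DESeq2 between the regions of Gad2+ IPs was *Egr2*, which was rare in cerebellum.

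Related genes were taken from 3 lists: 26 other early response genes, 10 later response genes and 17 upstream kinases, transcription factors and EGR corepressors. In cerebral Gad2+, PV+, SST, cerebral vGluT2+ and cerebellar Gad2+ IPs and cerebral total RNA, edgeR called 0 genes of these lists for HD. Unadjusted, 2, 6, 2, 3, 3 and 4 other early genes, 5, 1, 0, 4, 3 and 2 later genes and 3, 1, 2, 2, 1 and 1 upstream genes passed 0.05 in that order, as did 9.15%, 4.28%, 1.41%, 7.28%, 2.3% and 7.03% of all genes, and DESeq2 was not counted for these lists. In cerebellar vGluT2+ IPs, where 2.11% of all genes were called, 1 of 23 other early response genes tested rose, *Ier5* at 0.84, and 1 fell, *Dusp5*, an ERK phosphatase, at −1.11. Of the upstream list 3 of 17 fell and 0 rose: *Nab2* at −1.05 and *Nab1* at −0.65, corepressors that bind EGR proteins, and *Camk4* at −0.67, a nuclear calcium-dependent kinase that acts on CREB. 0 of 9 later response genes were called there by edgeR, with 4 unadjusted. In cerebellar total RNA, where 24.5% of all genes were called and 9 genes with the replicate number as a block, *Ier5* (0.6) and *Dusp6* (0.5) rose and *Dusp5* (−0.72) fell among 25 early genes. Of 10 later genes *Baz1a* (−1.26) and *Pcsk1* (−0.74) fell and 0 rose. Upstream, *Elk1* (0.6) and *Mapk3* (0.52) rose while *Nab1* (−1.11), *Camk4* (−0.99) and *Ppp3ca* (−0.54), a calcineurin subunit, fell. *Ier5* (0.84) and *Nab2* (−1.04) were also called for a different HD effect in cerebellar than in cerebral vGluT2+ IPs.

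Across regions most later genes were lower in cerebellum, as the members were. Of all genes, 5145 of 14253 were lower in cerebellum in vGluT2+ IPs and 4519 of 14472 in Gad2+ IPs, and 72.6% and 65.6% were called in either direction. In vGluT2+ IPs 9 of 9 later genes tested were lower in cerebellum, led by *Nptx2* at −5.94 and *Vgf* at −4.02, and in Gad2+ IPs 7 of 10 were lower and 1, *Pcsk1*, higher. The other early genes were mixed, with 8 higher and 11 lower of 24 in vGluT2+ IPs, from *Dusp5* at 3.05 and *Atf3* at 2.59 to *Dusp6* at −2.89. In Gad2+ IPs 5 were higher and 13 lower of 25, from *Ier3* at 1.62 to *Fosl2* at −2.9. Of 17 upstream genes 9 were higher and 6 lower in vGluT2+ IPs, with a median of 0.29, and 4 were higher and 11 lower in Gad2+ IPs, with a median of −0.69. *Camk2a* at −6.33 and *Mef2c* at −4.36 were the lowest in cerebellar vGluT2+ IPs, while *Camk4* was higher at 1.53.

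Between cell types other early genes were called in both directions, where 67.8% of all genes were called for PV+, 62.8% for SST, 41.5% for cerebral vGluT2+ and 69.3% for cerebellar vGluT2+ against Gad2+ IPs. In PV+ against cerebral Gad2+ IPs 4 of 25 were higher and 12 lower, from *Nr4a2* at 1.48 to *Klf10* at −1.65, and in SST IPs 7 were higher and 8 lower. In cerebral vGluT2+ against Gad2+ IPs 11 were higher and 4 lower, led by *Nr4a2* at 2.45 and *Nr4a3* at 2.23, relatives of *Nr4a1* that was itself at 0.19 (SE 0.309). In the cerebellum 16 of 25 were higher and 8 lower in vGluT2+ IPs, from *Klf10* at 2.73 to *Ier3* at −2.4.

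**Figure D3:**
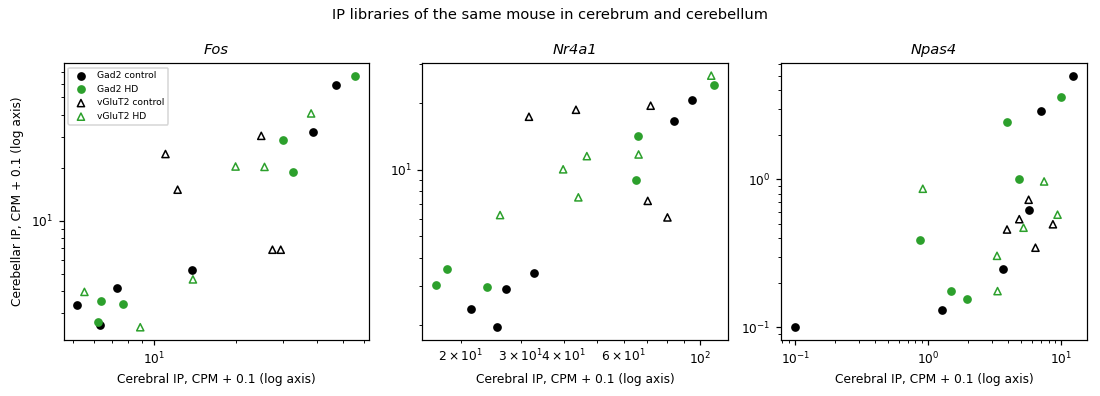
*Fos*, *Nr4a1* and *Npas4* in the cerebral IP (x axis) and cerebellar IP (y axis) of the same mouse, in CPM + 0.1 on log axes; filled circles are Gad2 mice, open triangles vGluT2 mice, black control and green HD. The same 5 Gad2 mice, 2 control and 3 HD, stand apart from the other Gad2 mice at the upper right in *Fos* and *Nr4a1*. An HD vGluT2 mouse lies in the same area.

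*Fos* was next compared between the regions of the same mouse. Of 12 Gad2 mice with both IPs, the same 5 (control replicates 3 and 4, HD replicates 3, 4 and 5) were high in cerebrum and cerebellum. *Fos* was 29.8 to 55.3 CPM in their cerebral and 18.9 to 66.4 in their cerebellar IPs, against 5.09 to 13.7 and 2.48 to 5.16 in the other 7 mice. *Nr4a1* was 65 to 110 and 8.89 to 23.9 CPM in the 5, against 16.9 to 32.7 and 1.85 to 3.47. *Npas4* was 0.913 to 4.93 CPM in the cerebellar IPs of the 5 and 0 to 0.525 in the others, and 3.81 to 12.1 against 0 to 5.58 in the cerebral IPs. The high mice include both genotypes, and no correlation over all 12 is given because they form separate clusters in *Fos*. Identifiers of the high mice, BO17 to BO21 in the labels, form an unbroken run, and the part of this was not tested. *Arc* was 57.3 to 125 CPM in the cerebral IPs of the 5 against 20.7 to 51.7, but 7.94 to 9.31 against 6.67 to 12.4 in their cerebellar IPs.

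The same question was asked of every gene tested, as the correlation across mice of deviations from the mean of each sample set, with 100000 permutations of mice within sample sets. For the regions of Gad2 mice 0 of 10 members were called, against 0% of 14472 genes, with 6 members and 1880 genes at an unadjusted p under 0.05, from correlations that include the 5 mice apart in *Fos*. For the regions of vGluT2 mice 0 of 10 members were called, against 0%, with 0 members and 2103 of 14264 genes unadjusted and a median r of 0.23 against 0.29 for all genes over 11 mice. For the lines the paper describes, total RNA came from part of the homogenate used for the IP, whereas the regions were dissected apart. Between cerebellar IP and total RNA of the same 13 mice 0 of 9 were called, against 0%, with 5 members and 829 of 14349 genes unadjusted and a median r of 0.81 against 0.08. These mice include some of the Gad2 mice apart in *Fos*. Without the 2 mice farthest from the median for each gene, r of those 5 members ran from 0.56 for *Nr4a1* to 0.77 for *Npas4*. Between cerebral IP and total RNA of the same 24 mice 3 of 10 were called, against 0.182% of 14867 genes, 9 members and 2647 genes were unadjusted, and the median r was 0.71 against 0.21. These counts were adjusted by Benjamini-Hochberg over all genes of a pairing, and no other tool was run on them.

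The 3 called were *Fos*, *Junb* and *Nr4a1*, and all 3 lost the call with a pseudocount of 0.1 in place of 1. Scaled by library size alone, *Fos* and *Junb* lost it too, *Nr4a1* was called and *Egr1* was called as well. For *Fos*, r was 0.86 over 24 mice (permutation p 6e-05, adjusted 0.0496; rho 0.86, p 7e-05, adjusted 0.0646) and 0.88 without the 2 mice farthest from the median. For *Nr4a1*, r was 0.88 (p 2e-05, adjusted 0.0496; rho 0.84, p 2e-05, adjusted 0.0646; permutation test) and 0.84 without them. For *Junb*, r was 0.7 (p 9e-05, adjusted 0.0496; rho 0.66, p 0.00043, adjusted 0.0769; permutation test) and 0.66 without them. These 24 mice include 2 of the Gad2 mice that stand apart in *Fos*, control replicate 4 and HD replicate 4 of the cerebral IPs, and 1 SST control of the other identifier series, so no r of *Fos*, *Nr4a1* or *Junb* is given for these lines alone. In the PV and vGluT2 lines, with 6 mice each, *Fos* had r of 0.86 and 0.66 (exact permutation p 0.0833 and 0.167) *Nr4a1* 0.91 and 0.88 (exact permutation p 0.111 and 0.0556) and *Junb* 0.58 and 0.75 (exact permutation p 0.306 and 0.0278), where the exact permutation p can be no lower than 0.0278. *Egr3* had the opposite sign, with r of −0.33 (permutation p 0.0399, adjusted 0.258; rho −0.32, p 0.0362, adjusted 0.26) and −0.13 without the 2 farthest mice, so its pooled value rests in part on those. By line it was −0.8 in Gad2, 0.09 in PV, 0.14 in SST and −0.64 in vGluT2 mice (exact permutation p 0.0556, 0.833, 0.694 and 0.25).

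Over all 106 libraries, after removing the mean of each sample set, 9 members varied with the mean of the other members, r from 0.64 for *Egr4* to 0.87 for *Junb*, and *Egr3* did not, at 0.12. The genes most like the members' mean by this measure were *Dusp1* (r 0.86), *Btg2* (0.83), *Ier2* (0.81), *Arl4d* (0.78) and *Tob2* (0.76), among 14800 genes with a median of 0.09. These values describe libraries that share mice, so they carry no p. The libraries include those of the 5 Gad2 mice apart in *Fos* and of the SST controls of the other identifier series. *Dusp1*, *Btg2* and *Ier2* are on the list of other early response genes, and *Arl4d* and *Tob2* are on none.

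Because 9 of the members varied with the mean of the others over all libraries, though *Egr3* did not, the members' promoters were searched for the binding sequence of CREB and for the CArG box, the site of serum response factor. RefSeq promoters (GRCm38.p6, 250 bases before to 50 after the start) were matched for 7 members, with 11 promoters, 5 of them of *Egr2*; *Arc*, *Egr1* and *Egr3* have no entry. The full cAMP response element, TGACGTCA, was in 0 of the 11 and in 1.79% of 32851 promoters, both strands read. Its shorter form, TGACG on either strand, which the full element contains, was in 9 of the 11, with at least 1 promoter of each of the 7 members, and in 20.8% of all promoters. The *Egr2* promoters that hold this form overlap and share the same matches, so the 11 are not independent. A CArG box was in 4 of the 11, all of *Egr2* and overlapping in part, and in 1.63% of all promoters. These matches describe letters in this window and not binding. The promoters shown are those of *Fos*, *Junb* and *Nr4a1*, called between cerebral IP and total RNA of the same mouse, and of *Npas4*, chosen after its values were seen in the 5 Gad2 mice high in *Fos*. They are given 5′ to 3′ on the gene's strand, with TGACG or its reverse complement in capitals: *Fos* (chr12:85473640-85473939, plus strand) and *Npas4* (chr19:4989922-4990221, minus strand) hold 2 each, *Nr4a1* (chr15:101266596-101266895, plus strand) 4 and *Junb* (chr8:84978699-84978998, minus strand) 1.
Fos: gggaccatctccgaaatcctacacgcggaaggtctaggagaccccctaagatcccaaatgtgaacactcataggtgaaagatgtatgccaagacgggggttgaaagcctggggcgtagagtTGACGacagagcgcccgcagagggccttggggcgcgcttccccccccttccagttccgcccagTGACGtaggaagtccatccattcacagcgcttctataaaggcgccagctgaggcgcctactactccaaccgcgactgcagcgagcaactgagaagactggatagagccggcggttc
Npas4: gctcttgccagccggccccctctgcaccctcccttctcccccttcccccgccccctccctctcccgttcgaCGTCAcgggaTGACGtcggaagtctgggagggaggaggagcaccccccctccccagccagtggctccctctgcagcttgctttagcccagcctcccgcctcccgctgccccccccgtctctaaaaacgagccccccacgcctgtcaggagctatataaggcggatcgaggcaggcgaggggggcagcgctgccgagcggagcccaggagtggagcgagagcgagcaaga
Nr4a1: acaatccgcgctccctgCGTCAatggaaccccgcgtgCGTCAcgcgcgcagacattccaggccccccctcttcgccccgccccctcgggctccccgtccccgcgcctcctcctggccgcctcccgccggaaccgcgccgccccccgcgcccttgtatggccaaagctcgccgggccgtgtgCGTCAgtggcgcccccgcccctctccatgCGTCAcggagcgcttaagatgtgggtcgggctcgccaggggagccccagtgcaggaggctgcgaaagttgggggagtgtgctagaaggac
Junb: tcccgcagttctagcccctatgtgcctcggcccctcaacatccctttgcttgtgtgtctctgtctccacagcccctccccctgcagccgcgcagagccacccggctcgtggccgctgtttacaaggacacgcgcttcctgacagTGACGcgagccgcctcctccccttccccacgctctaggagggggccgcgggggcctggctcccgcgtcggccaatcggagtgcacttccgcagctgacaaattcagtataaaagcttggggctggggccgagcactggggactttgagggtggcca

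How long before death each mouse was last disturbed is not given in the sources used here. Counts of the tagged cells were not analysed here, so levels are per library and not per cell.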

How the data were processed

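The files hold estimated counts per gene, which the authors made with STAR and Salmon on GRCm38.p6 from stranded TruSeq libraries and deposited as 1 table; 8.57% of values were not whole (tolerance 1e-9), and all were rounded here. The 92 spike-ins, at most 4.45% of a library, were left out of library sizes. Gene positions and lengths came from GENCODE M21, where 55141 of 55401 genes matched.

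Samples were grouped by mouse line, region, fraction and genotype as labelled. Tests ran on genes annotated as coding for protein whose counts averaged above 10, with edgeR 4.0.16 (quasi-likelihood F test, TMM, limma 3.58.1, R 4.3.3), and a call needed a Benjamini-Hochberg adjusted p of 0.05 or less. SE is the log2 fold change over the root of F. DESeq2 1.42.0, other scalings, filters, subsets of libraries and leaving out each library were alternatives. Correlations of log2(CPM + 1) used 100000 two-sided permutations in Python 3.11.15 with numpy 2.4.6 and pandas 2.3.3, and plots used matplotlib 3.10.9. The scripts were tested on simulated data. At a simulated log2 fold change of 1, edgeR recovered 50.5% of changed genes for HD in SST IPs and 61.5% in cerebellar vGluT2+ IPs. It recovered 86.5% in cerebral total RNA. For the difference in HD effect between cerebellar vGluT2+ and Gad2+ IPs it recovered 39.5%, with 10.2% of its calls false. A member not called for HD can thus have changed.

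The named genes are the 10 members, of the 3 related lists those called, up to 3 a direction by size of log2 fold change, marker genes beside a result, and the 5 genes most like the members' mean. The members and lists were chosen with earlier results of these data known. Regions, and IP and total RNA, pair by mouse from the identifiers in the labels, and a fit with the mouse as a block was run for them. No pair of replicates fell within sampling noise, with a lowest chi-square of 7.9 per degree of freedom.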

Additional observations from a re-analysis of the deposited data

Results flagged for a closer look

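In 5 of 144 combinations of a member and a group of 4 to 10 libraries, 1 library stood far from the rest by its gap over the group's range, where chance gives about 1 in 20. *Egr4* was 18 CPM in HD replicate 4 of cerebellar vGluT2+ IPs, against 4.3 to 6.91 in the others, and *Nr4a1* was 26.4 CPM in the same library, against 6.14 to 11.6. *Egr3* was 22.1 CPM in HD replicate 4 of SST IPs, against 39.8 to 40.9, and 0.681 CPM in HD replicate 2 of cerebellar Gad2+ IPs, against 0.311 to 0.413. *Junb* was 8.87 CPM in HD replicate 4 of vGluT2-line cerebellar total RNA, against 10.6 to 10.7.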

How the results depend on the processing

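Counts of members called were equal to the value given, or within 1.5 times of it where neither was 0, in 242 of the alternatives and not in 14. Many of the 242 were HD effects with 0 members called in the main fit, where an equal count says little. For HD in cerebellar vGluT2+ IPs, 2 members were called by DESeq2, 2 in a fit of all IPs, and 0 to 1 when single libraries were left out. For HD in cerebellar total RNA, 1 was called in the vGluT2 line alone and 0 to 1 without single libraries, and in the other HD effects 0 without any single library. Against total RNA, cerebral Gad2+ IPs had 0 calls with control libraries only and 0 with total RNA of the same line only. With the mouse as a block, cerebral vGluT2+ IPs had 2 and cerebellar Gad2+ IPs 5, and with total RNA of the same line cerebellar vGluT2+ IPs had 5. Cerebral vGluT2+ against Gad2+ IPs had 0 with control libraries only. The correlation of cerebral IP and total RNA had 0 with a pseudocount of 0.1. Signs turned, for members called in at least 1 of the fits, for *Fos* (−0.02) and *Nr4a1* (−0.43) in cerebral Gad2+ and *Fos* (−0.49) in cerebellar Gad2+ IPs against total RNA with the mouse as a block, and for *Fos* (1.73) and *Npas4* (0.02) in cerebellar vGluT2+ IPs against total RNA of the same line. Values not called in either fit turned sign as well, among them the HD effects of *Arc* (0.2), *Nr4a1* (0.21), *Junb* (0.18), *Npas4* (0.06) and *Egr4* (0.03) with only the SST mice of the shared identifier series. The cause was not tested. Values of single genes were the same by this measure in 2273 alternatives, moved in 165, gained a call in 19 and lost it in 36.

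For HD, replicate numbers are shared between genotypes, and the labels do not say whether they name pairs. In Gad2+ IPs a shared number joins control and HD mice with adjacent identifiers. Same-numbered libraries varied together, with r over 0.1, in every pair only in cerebral total RNA of the Gad2 line (r 0.566 to 0.966 over 3 pairs). They did so in 4 of 6 pairs of cerebral Gad2+ and 4 of 5 of cerebral vGluT2+ IPs, but in 1 of 4 of PV+ and 1 of 4 of SST IPs. The main HD fits did not use the number. With the number as a replicate block 0 members were called by edgeR in each of the 8 HD effects, and genes called in cerebellar total RNA went from 3544 to 9. Libraries of 21905221 counts or more limit what can be seen of *Egr2* in the cerebellum, where 28 counts were found over all total RNA libraries.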
